A study of Homo sapiens with 14 samples.

Results

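Promoter peaks found only with dTAG-V1 are ChIP-seq peaks of an antibody against ZNF143, called after acute degradation of ZNF143. They have no overlapping call in the list from untreated cells, which does not show that signal was absent there. They were selected on measured values, namely a call in the dTAG-V1 list and the absence of any overlapping call (1 bp or more) in the untreated list. Their centre also had to lie near a transcription start site (TSS), no more than 2 kb before it or 1 kb past it, with the TSS taken as the 5′ end of any GENCODE gene record in hg38. The rule found 3279 peaks among the 35287 peaks of the dTAG-V1 list. Of the whole list, 20412 peaks (57.8%) had no overlap with the untreated list, and of its 9373 promoter peaks these 3279, called members below, made up 35.0%. These percentages restate the selection, and nothing is read from them.

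Both groups were HEK293T cells, an established line of human embryonic kidney origin, from 1 clone in which ZNF143 carries the FKBP12F36V tag. One group was left untreated (4 samples) and the other received 0.5 µM dTAG-V1 for 30 min (4 samples). The small molecule dTAG-V1 binds the tag and directs the fusion protein to an E3 ubiquitin ligase for degradation. Chromatin was precipitated with the Proteintech antibody, a polyclonal antibody raised against ZNF143. The tag and the clone were therefore common to both groups. The authors report that the Proteintech antibody cross-reacts with CTCF, a protein described below. In their data the signal of this antibody at CTCF sites persisted, and grew stronger, after ZNF143 depletion. A peak is therefore not taken here as ZNF143 binding, and which protein was bound was not tested. The authors deposited 1 list of MACS2 peaks per condition, with 20429 peaks in the untreated list. No value for a single sample was available, so a difference between the conditions has no replicate spread to be compared with, and sequencing depth is unknown. The lists hold no expression values, so the identity of the cells was not checked. All 95% intervals below are Wilson intervals for a share and Newcombe intervals for a difference of shares. They cover counting error over peaks only, and peaks are not replicates of a condition.

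ZNF143 is a zinc-finger transcription factor that binds the Staf binding site (SBS) in promoters of protein-coding and small nuclear RNA genes. The SBS is described in the forms SBS1 and SBS2, where SBS2 adds an ACTACA element to the core shared with SBS1. CTCF is another zinc-finger protein. It halts loop extrusion by cohesin in an orientation-dependent manner, mostly at sites away from promoters, and also occupies a subset of promoters. The question for these peaks is which of the known sequences lies under a promoter peak that appears in the list only after ZNF143 depletion. A position weight matrix was built for each of CTCF, SBS1 and SBS2 from peaks merged over both lists. Their most frequent letters were CCACCAGGGGGCAC for CTCF, TTCCCAGCATCCCCTGCGG for SBS1 and ACTACATTTCCCAGAATCCCC for SBS2. A motif was counted when a hit at p 1e-05 or lower lay within 100 bp of the peak summit, on either strand. SBS stands for a hit to SBS1 or SBS2.

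The first set of sequences shows CTCF hits at dTAG-V1-only promoter peaks, because this motif was more frequent in them than in promoter peaks found in both lists. Each is 30 bases of hg38 read 5′ to 3′ on the strand of the hit, with the matched bases in capitals and the coordinates of the matched bases beside the name of the gene.
CEBPE (chr14:23120937-23120950, plus strand): tgtgttgaCCACCAGGTGGCAAtattggcc
SOST (chr17:43760586-43760599, minus strand): ttttgtctCCAGCAGGTGGCAGacgcgttc
MIR6818 (chr22:30005412-30005425, minus strand): caagaggaGCAGTAGATGGCGCtcttcagc
HOXC5 (chr12:54032742-54032755, plus strand): ccacatagGCACCAGGTGTCGCtgtgggct
KCNA2 (chr1:110630937-110630950, plus strand): ttccaccaCCACCAGATGGCAGcacaaagc
KCNG3 (chr2:42495176-42495189, plus strand): tccggtgcCCGCTAGAGGTCGCcaaacgga
STAG1 (chr3:136752347-136752360, minus strand): ggaaaatgCCACCAGATGGCGGgttaggat
NANOS3 (chr19:13862423-13862436, minus strand): tgcagccaCCAGCAGGGGGCAGcagagtcc

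The promoter peak of CEBPE held 2 CTCF hits on the same strand. They are shown in capitals in 151 bases around its summit, chr14:23120901-23121051 on the plus strand, a stretch that overlaps no annotated exon.
CEBPE summit: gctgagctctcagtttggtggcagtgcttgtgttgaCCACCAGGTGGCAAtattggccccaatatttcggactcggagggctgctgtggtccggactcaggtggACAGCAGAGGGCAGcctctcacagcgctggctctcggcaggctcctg

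The second set shows the SBS hits of the 3 highest-scored dTAG-V1-only promoter peaks with an SBS and no CTCF motif, and of a histone gene pair with an SBS2 hit.
ENSG00000286388 (chr5:1345107-1345125, minus strand): tccgtTTCCCAGGGAGCCGCGCGGcgcgtc
CDC34 (chr19:531608-531626, plus strand): tccacCTCCCGGCGTCCCCTGCGGccgggc
ENOX1 (chr13:43787146-43787164, minus strand): ctgacTTCCCCTCCTCCTCTGCTGccgccc
H2AC15 (chr6:27838251-27838271, minus strand): cgggTCTTCAGTTCCCAGTGGGCCGagtgc

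Most dTAG-V1-only promoter peaks ranked low in the dTAG-V1 list. Their MACS2 score, which rises with the significance of the call, had a median of 65 and ranged from 20 to 3901. The median rank was 25475 and the best rank 1419, whereas promoter peaks found in both lists had a median score of 219 and a median rank of 8480. The median fold enrichment over local background was 2.64 in dTAG-V1-only promoter peaks and 4.06 in shared promoter peaks. Peak width had a median of 353 bp against 633 bp. The share of promoter peaks that was found only with dTAG-V1 fell with the score, with 54.7% from 50 to below 100, 32.1% from 100 to below 150, 29.4% from 150 to below 200 and 7.17% from 200 upwards. These scores come from the calls that chose the peaks and are given as a description.

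The edge of the overlap rule is narrow for some peaks. A peak at the lncRNA gene ENSG00000289277 (chr15:44288051-44288384, score 46) ended 0 bp from an untreated peak. The peak at PLOD3, which encodes a lysyl hydroxylase that modifies collagen (chr7:101218381-101218600, score 46), lay 4 bp from one. Just outside the rule, a promoter peak at RN7SL408P (chr6:134132818-134133366, score 44) overlapped an untreated peak by 3 bp, and one at ZC3H13 (chr13:46052890-46053365, score 89) overlapped by 4 bp. Among the members, 35 (1.07%) lay within 100 bp of an untreated peak and 300 (9.15%) within 500 bp. The median gap was 19207 bp. Of the 6094 shared promoter peaks, 71 (1.17%) overlapped by less than 100 bp.

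A CTCF motif was found at 699 of the 3279 dTAG-V1-only promoter peaks, or 21.3% (95% interval 19.9 to 22.8). The share was 11.3% (10.6 to 12.2) at the 6094 shared promoter peaks and 5.52% (4.32 to 7.05) at the 1086 promoter peaks found only untreated. It therefore exceeded that of shared promoter peaks by 9.98 percentage points (8.38 to 11.6) and that of promoter peaks found only untreated by 15.8 points (13.7 to 17.7). The same search held a CTCF motif in 2.82% (2.45 to 3.25) of stretches 1 kb to either side of the member summits and in 4.30% (4.14 to 4.46) of stretches around all 61982 gene TSSs. Around protein-coding gene TSSs the share was 6.57%. Searched over whole peaks, which are wider when shared, the difference from shared promoter peaks was 3.78 points (1.99 to 5.59), and it was 16.7 points (14.6 to 18.7) when only peaks with a −log10 q of at least 5 were kept. Away from promoters, peaks found only with dTAG-V1 had a CTCF motif in 39.0% (38.2 to 39.7), and the members differed from these by -17.7 points (-19.2 to -16.0).

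SBS motifs showed the opposite order. They were present at 236 dTAG-V1-only promoter peaks, or 7.20% (6.36 to 8.13), against 35.0% (33.8 to 36.2) of shared promoter peaks and 43.4% (40.5 to 46.3) of promoter peaks found only untreated. The difference from shared promoter peaks was -27.8 percentage points (-29.3 to -26.3). The share was also below that of the flanks of the members themselves, 9.03% (8.36 to 9.74), with a difference of -1.83 points (-2.93 to -0.679), and below the 11.7% at all gene TSSs. The longer SBS2 matrix alone was matched at 2.01% of the members, 20.8% of shared promoter peaks and 2.53% of the flanks. With a fixed pattern, ACTACA followed by 2 partly variable bases and TCCCA with at most 1 mismatch, 4 members (0.122%) and 751 shared promoter peaks (12.3%) had a match. Of the SBS-positive members, 16.9% (12.7 to 22.3) kept a hit at the stricter p of 1e-06, whereas 68.3% (66.3 to 70.2) of SBS-positive shared promoter peaks did.

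**Figure D1:**
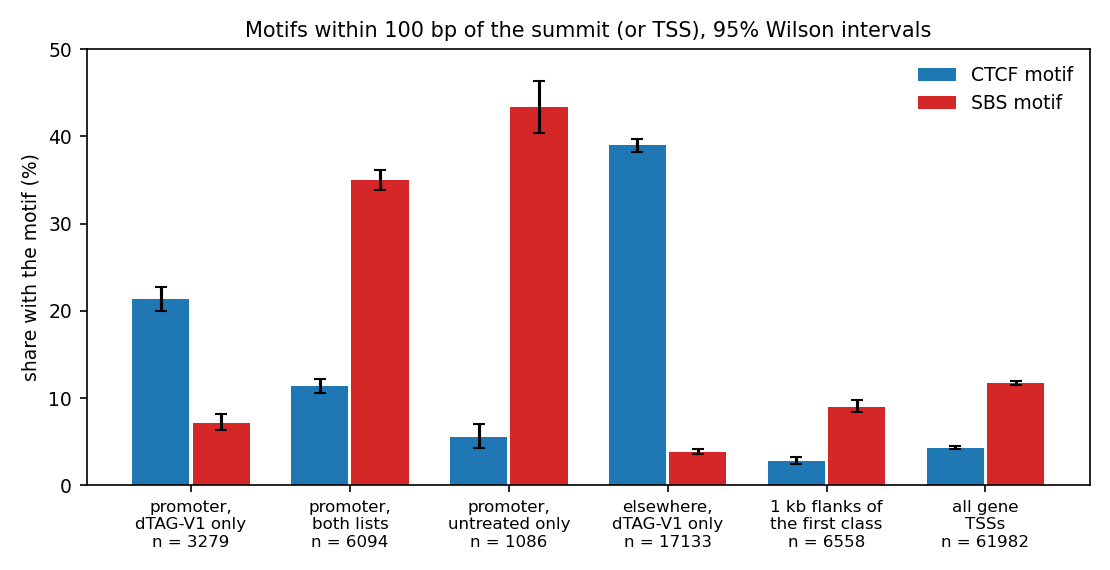
Share of peaks or stretches (y axis, %) with a CTCF motif (blue) or an SBS motif (red) within 100 bp of the summit or TSS, with 95% Wilson intervals as bars and the number of stretches under each class on the x axis. dTAG-V1-only promoter peaks have CTCF at 21.3% and SBS at 7.20%, and shared promoter peaks have 11.3% and 35.0%.

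By motif class, 649 members had CTCF only (19.8%), 186 had SBS only (5.67%), 50 had both (1.52%) and 2394 had neither (73.0%). The share with neither motif was 16.2 points (14.3 to 18.2) higher than at shared promoter peaks. CTCF-only members had a median score of 125, SBS-only members 60, members with both 116 and members with neither 58.

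Within the dTAG-V1-only promoter peaks, the CTCF share was higher at higher scores. It was 61.0% (55.6 to 66.1) in the highest decile by score, 32.9% in the third and 3.06% (1.67 to 5.54) in the lowest decile. The SBS share stayed between 5.49% and 8.54% in the 10 deciles. To compare members with shared promoter peaks in the same score ranges, both classes were divided at the same limits. The highest range had no upper limit, so scores were not matched within it. Over all peaks of a class, the upper quartile of the score was 1201 in shared promoter peaks, whereas the 90th percentile was 176 in members. From 20 to below 50 the CTCF shares of 5.19% and 4.20% differed by 0.991 points, with an interval from -1.99 to 3.28 that includes 0. From 100 to below 150 the shares were 38.5% of 408 members and 11.7% of 863 shared promoter peaks, a difference of 26.8 points (21.6 to 32.0). From 200 upwards they were 64.9% of 248 and 12.9% of 3211, a difference of 52.0 points (45.8 to 57.8). Peaks found only with dTAG-V1 away from promoters had a higher CTCF share than the members in each of the 5 score ranges. The difference of the members from them was -2.33 points (-3.81 to -0.601) in the lowest range and -7.92 points (-14.3 to -1.93) in the highest. For SBS, members stayed below shared promoter peaks in each range. The difference lay between -5.61 points (-8.88 to -1.96) and -7.88 points (-10.3 to -5.49) in the ranges below 200. It was -46.8 points (-49.8 to -42.6) from 200 upwards, where the scores were not matched.

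**Figure D2:**
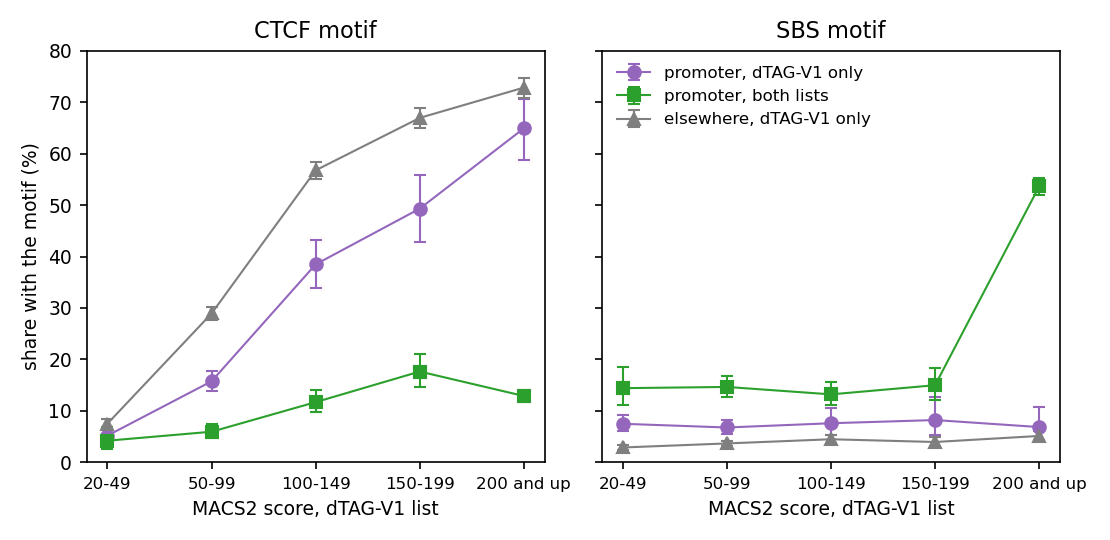
Share of peaks (y axis, %) with a CTCF motif (left) or an SBS motif (right) in 5 ranges of the MACS2 score of the dTAG-V1 list (x axis), with 95% Wilson intervals. The CTCF share of dTAG-V1-only promoter peaks (purple circles) climbs from 5.19% to 64.9% between peaks elsewhere (gray triangles) and shared promoter peaks (green squares), and the SBS share stays between 6.77% and 8.22%.

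The matched CTCF sites lay close to the summits. Of the 699 best hits, 601 (86.0%, 83.2 to 88.4) were centred within 50 bp of the summit and 387 (55.4%) within 20 bp. A site placed evenly over the searched 201 bp falls within 50 bp in 53.7% of positions and within 20 bp in 21.8%. The share within 50 bp was 10.4 points (6.31 to 14.5) higher than for CTCF hits of shared promoter peaks, and it differed by -6.58 points (-9.41 to -4.11) from that of dTAG-V1-only peaks away from promoters. The SBS hits of members showed no such centring, with 51.7% (45.3 to 58.0) within 50 bp, whereas 82.0% (80.3 to 83.6) of the SBS hits at shared promoter peaks lay within that distance. A CTCF hit at p 1e-06 was present at 66.2% (62.7 to 69.6) of CTCF-positive members, 14.9 points (9.70 to 19.9) more often than at CTCF-positive shared promoter peaks. CTCF-positive members with 2 or more hits, such as CEBPE above, numbered 32 (4.58%), a share that differed from shared promoter peaks by 0.960 points with an interval from -1.17 to 3.11. The hit was on the strand of the nearest gene in 57.9% (54.2 to 61.5) of members and in 59.9% (56.2 to 63.5) of shared promoter peaks. The most frequent exact CTCF core in members, CCACCAGGGGGCAG, occurred in 15 of them and the next, CCACCAGGTGGCAG, in 10.

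Without any matrix, 8-letter words were ordered by their excess at member summits over flanks 1 kb away, relative to the counting error expected at the flank frequency, among words in at least 1% of members. The first 5 were CCACTAGG in 2.07% of members against 0.290% of flanks, CCACTAGA in 2.01% against 0.351%, CACTAGAG in 1.74% against 0.274%, AGAGGGCG in 3.29% against 0.839% and CAGAGGGC in 3.84% against 1.08%. The first 3 share most of their letters, as do the last 2, so that the words are not independent, and each resembles a stretch of the CTCF matrix. Among the 2394 members with neither motif, the first word in the same order was CACACAGC, in 2.67% of members and 1.09% of flanks.

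Short words of general promoter factors were searched on both strands in the same 201 bp. GGGCGG, bound by SP and KLF factors, was present in 19.3% of members, 34.6% of shared promoter peaks and 23.5% of all gene TSS stretches. ACTTCCGG, bound by ETS factors, occurred in 1.37%, 7.06% and 1.99% of them, and GCGCATGC, bound by NRF1, in 0.549%, 2.30% and 1.46%. The CREB and ATF word TGACGTCA was found in 0.305%, 1.61% and 0.868%. The YY1 word AAGATGGC was found in 1.68%, 4.41% and 2.29%. CCAAT, the box of NF-Y, occurred in 20.1%, 23.1% and 26.6%. The E-box CACGTG occurred in 4.09%, 6.02% and 3.98%. TATAAA was the only one of the 8 words with a higher share in members (10.7%) than in shared promoter peaks (5.19%), and its share at all gene TSSs was 10.1%. A word in these 201 bp is a match of letters and no measure of binding.

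Base composition placed the members between shared promoter peaks and peaks elsewhere. The ratio of observed to expected CpG, which is high in CpG island promoters, had a median of 0.522 (0.508 to 0.539) in members, 0.768 in shared promoter peaks and 0.232 in dTAG-V1-only peaks elsewhere. It was 0.395 in members with CTCF only, 0.657 in those with SBS only and 0.547 in those with neither motif. Median GC content was 50.7% in members and 59.7% in shared promoter peaks. Composition therefore moved with the class, and the CTCF shares were also compared at like CpG ratio. Members exceeded shared promoter peaks by 11.2 points (5.86 to 16.2) below a ratio of 0.25, by 6.93 points (2.95 to 10.9) from 0.25 to 0.5, by 4.89 points (2.08 to 7.85) from 0.5 to 0.75 and by 6.07 points (3.58 to 8.84) above that. The SBS share of members was lower in each of these 4 ranges, with differences between -14.3 and -32.4 points.

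**Figure D3:**
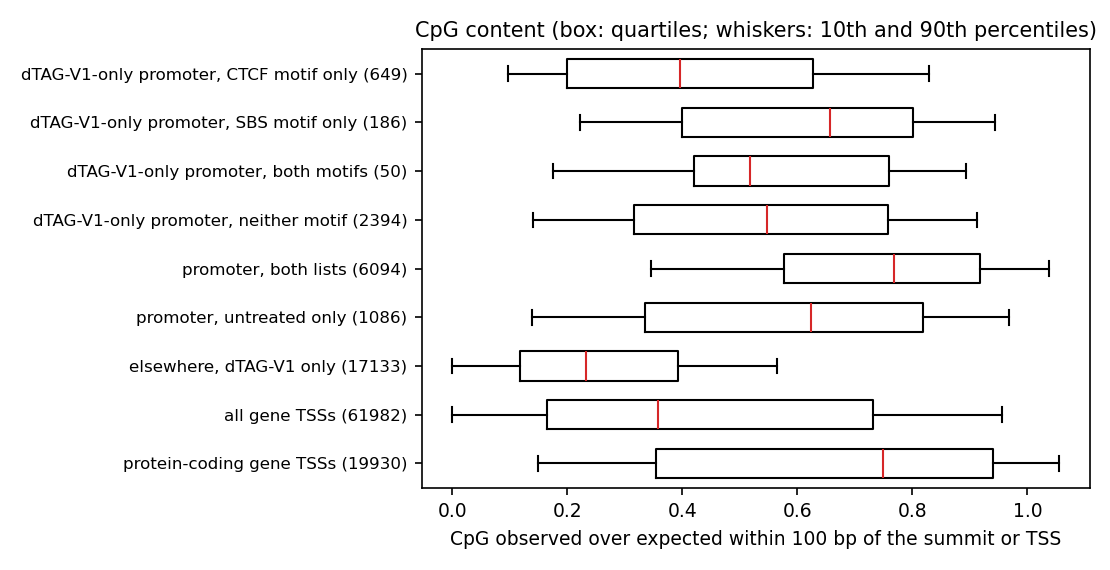
Ratio of observed to expected CpG (x axis) in 201 bp around the summit or TSS for each class (number of stretches in parentheses), with red lines at the median, boxes at the quartiles and whiskers at the 10th and 90th percentiles. The median is 0.522 over all members, 0.395 in members with CTCF only and 0.768 in shared promoter peaks.

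The members were spread more widely around the TSS than shared promoter peaks. The window is part of the rule, but the position inside it is not. Their centres lay at a median of -193 bp from the nearest TSS (quartiles -694 and 263.5), against -31 bp for shared promoter peaks. Only 27.2% (25.7 to 28.8) were within 250 bp of the TSS, against 59.2% of shared promoter peaks (difference -32.0 points, -33.9 to -30.0). More than 1 kb upstream lay 18.5% of the members, 13.1 points (11.7 to 14.6) more than of shared promoter peaks. Members with CTCF were more often that far upstream than members without (27.0% against 16.2%, a difference of 10.8 points, 7.31 to 14.5). At like distance the CTCF share of members still exceeded that of shared promoter peaks. Within 250 bp of the TSS it was 22.8% against 9.43%, a difference of 13.4 points (10.5 to 16.4), and from 2 kb to 1 kb upstream it was 31.1% against 24.5%, a difference of 6.61 points (0.557 to 12.4).

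**Figure D4:**
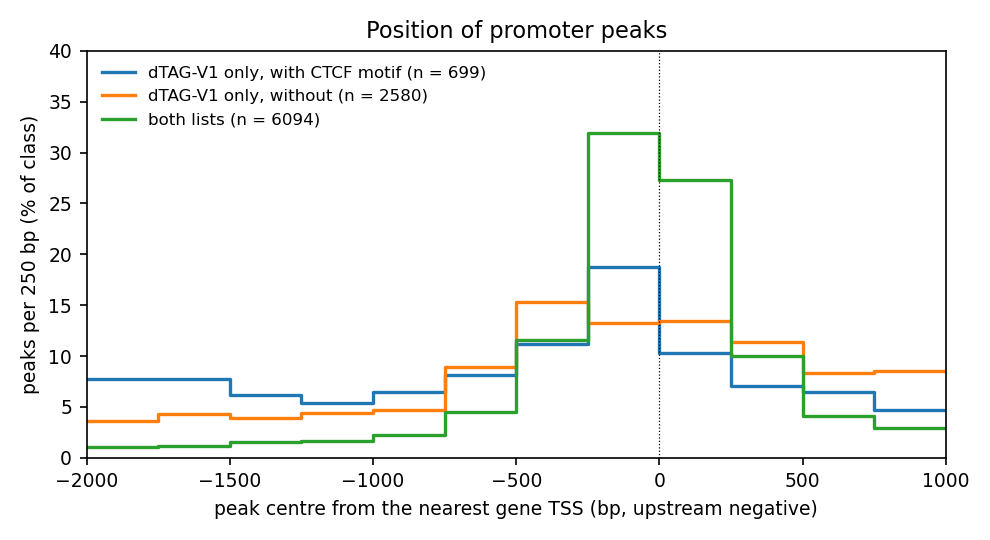
Position of the peak centre relative to the nearest gene TSS (x axis, bp, upstream negative) as the share of each class per 250 bp (y axis, %), for dTAG-V1-only promoter peaks with (blue) and without (orange) a CTCF motif and for shared promoter peaks (green). The 250 bp just upstream of the TSS hold 31.9% of shared promoter peaks, 18.7% of CTCF-positive members and 13.2% of the other members.

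The window of a protein-coding gene held 2091 members (63.8%, 62.1 to 65.4), compared with 81.9% of shared promoter peaks (difference -18.1 points, -20.1 to -16.2). For members with CTCF the share was 46.2%, and it differed by -22.3 points (-26.4 to -18.2) from that of members without CTCF. Within protein-coding windows the CTCF share remained higher in members than in shared promoter peaks, 15.4% against 9.74%, a difference of 5.71 points (4.00 to 7.51). By the nearest gene, 56.5% of members belonged to protein-coding genes, 30.4% to lncRNA genes and 4.39% to processed pseudogenes, compared with 72.2%, 22.1% and 1.10% of shared promoter peaks. Of all annotated gene TSSs, 32.2%, 30.2% and 16.1% are of these kinds. The windows of 3932 genes held a member, and 511 of these genes also had a shared peak. Of the members, 404 (12.3%, 11.2 to 13.5) shared a promoter window with such a peak, and among members with CTCF the share was 6.87%. There were 741 members in the windows of 2 or more genes, so genes that share a divergent or overlapping promoter share their member. Across chromosomes, members made up from 24.3% (chromosome 19) to 43.7% (chromosome 4) of promoter peaks. The CTCF share of members ran from 10.3% of 29 on chromosome 21 to 35.4% of 158 on chromosome 11.

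The 10 members with the highest scores were mixed in their motifs, with 3 SBS only, 3 CTCF only, and 4 with neither. The highest score, 3901 (fold enrichment 19.4), belonged to a peak in exon 1 of the lncRNA gene ENSG00000286388 (chr5:1345048-1345579), 117 bp downstream of its TSS and also in the window of CLPTM1L. Its SBS1 hit at p 1e-06 lay 17 bp from the summit, and the nearest untreated peak was 176773 bp away. The next peak, at CDC34, which encodes a ubiquitin-conjugating enzyme of cell-cycle control (chr19:531468-531687, score 2028), lay 182 bp upstream of the TSS. Its SBS1 hit was 9 bp from the summit, and an untreated peak lay 195 bp away. ENOX1 (chr13:43786933-43787233, score 1010) had an SBS1 hit 65 bp from the summit and an untreated peak 795 bp away. Of these 3 SBS-positive peaks, 2 were less than 1000 bp from an untreated peak, as were 493 (15.0%) of all members. The median gap over the 186 SBS-only members was 15758.5 bp.

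VDAC2, which encodes a channel of the outer mitochondrial membrane (chr10:75210537-75210824, score 850), had neither motif. CEBPE encodes a transcription factor of granulocyte maturation, and its peak (chr14:23120822-23121240, score 742, fold enrichment 8.56) lay 775 bp upstream of the TSS and 20673 bp from the nearest untreated peak. The peak of SOST, which encodes the Wnt antagonist sclerostin (chr17:43760401-43760754, score 627), lay 1787 bp upstream, with its CTCF hit 26 bp from the summit. MIR6818 (chr22:30004997-30005673, score 508) had a CTCF hit 3 bp from the summit, 1714 bp upstream of the gene. LINC01074 (score 525) and the pseudogene ENSG00000238139 (score 445), also among the highest 10, had neither motif at p 1e-05. The 3 CTCF-only peaks lay at least 12133 bp from an untreated peak, and the median gap over all 649 CTCF-only members was 26672 bp.

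Both motifs occurred in 50 members. The highest-scored of these were at SH3GL1, an endophilin gene (chr19:4400635-4400883, score 345), at CCNJL, a cyclin J-like gene (chr5:160345073-160345624, score 326), and at NANOS3, a gene of germ cell development (chr19:13862195-13862671, score 311). At NANOS3 the CTCF hit lay 2 bp and the SBS1 hit 36 bp from the summit. At CCNJL the order was turned, with the SBS1 hit 2 bp and the CTCF hit 42 bp away. At SH3GL1 the best-scored CTCF hit lay 93 bp and the SBS1 hit 77 bp away, and a further CTCF hit lay nearer to the summit.

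Several genes held more than 1 member. The windows of 196 genes held 2 or more, and 8 genes held 3, namely ARL15, BSG-AS1, COL13A1, ENSG00000273199, ENSG00000285943, HNRNPC, METTL21A and SPICE1. The 3 members of COL13A1, a transmembrane collagen gene on chromosome 10, lay at 198, -695 and -1569 bp from the TSS with scores of 81, 61 and 52, and those at -695 and -1569 bp had CTCF hits 21 and 11 bp from the summit. The 3 members of METTL21A, a lysine methyltransferase gene, had scores from 36 to 68 and neither motif. The members of HNRNPC, which encodes an mRNA-binding protein, scored from 33 to 54, and 1 had an SBS hit.

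Gene lists were described by how many of their genes with any dTAG-V1 promoter peak had only members and no shared peak. Over all protein-coding genes these were 1887 of 7838, or 24.1%. A member, with or without a shared peak, was present at 2209 of all 19970 protein-coding genes. The lists were chosen with earlier results of these data known, and their counts are descriptions. In several lists most genes with a peak had shared peaks. Only members were found at 3 of 69 cytosolic ribosomal protein genes (4.35%), at 5 of 69 mitochondrial ribosomal protein genes (7.25%), at 2 of 34 proteasome genes (5.88%), at 5 of 39 genes of NADH dehydrogenase subunits and assembly factors (12.8%) and at 29 of 314 ZNF-numbered zinc finger genes (9.24%). The listed U snRNA genes, classical targets of Staf, had 0 members, while 13 of 17 had a shared peak. By the nearest gene, 44 members (1.34%) and 59 shared promoter peaks (0.968%) belonged to snRNA gene records of any kind. Such records are 3.03% of all gene TSSs.

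Among these members, MRPL4, a protein of the large mitochondrial ribosomal subunit, had a score of 129 and a CTCF hit 26 bp from the summit, 1722 bp upstream of the TSS, and the gene also has a shared peak. MRPS18B, of the small subunit, had members of scores 94 and 33, both with neither motif. NDUFAF4, an assembly factor of complex I, had members of scores 206 and 78, both with a CTCF motif, and NDUFAF7 had 1 of score 78 with an SBS1 hit 15 bp from the summit. RPL27A (score 165), RPL6 (93), PSMG1 (50) and PSMG2 (32) had neither motif. The highest-scored zinc finger members were at the lncRNA gene ZNF767P (157, neither motif) and ZNF114 (141, with CTCF). Of the 34 zinc finger genes with a member, 5 had CTCF at it. The count was 1 of 7 for mitochondrial ribosomal protein genes and 1 of 5 for genes of NADH dehydrogenase subunits and assembly factors.

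In other lists the fraction was above the 24.1% of all protein-coding genes, from small numbers of genes and with no test. Genes were counted, so genes that share a peak, such as TUBA1A and TUBA1C, each count. Only members were found at 10 of 14 potassium channel genes with a peak (71.4%), at 17 of 35 developmental transcription factor genes (48.6%), at 17 of 45 replication-dependent histone genes (37.8%), at 3 of 8 tubulin genes (37.5%), at 6 of 18 HOX genes (33.3%) and at 35 of 112 solute carrier genes (31.2%). Apart from the histone genes, most genes of these lists had no dTAG-V1 promoter peak at all, for example 81 of 95 potassium channel genes and 255 of 367 solute carrier genes.

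The potassium channel members were at KCNA2 (score 151), KCNG3 (144), KCNJ2 (92), KCNA7 (84), KCND2 (79), KCNK15 (69), KCNJ11 (51), KCNK5 (51), KCND1 (34) and KCNJ10 (34). A CTCF motif was present at 5 of them, KCNA2, KCNG3, KCNA7, KCND2 and KCND1. HOX genes pattern the body axis, and 8 of them had a member, with CTCF at HOXC5 (score 328), HOXA10 (143) and HOXB5 (66) and without it at HOXD10 (150), HOXC6 (110), HOXB3 (66), HOXB6 (66) and HOXC10 (57). HOXB3 and HOXB6 share the same peak. The HOXC5 peak (chr12:54032643-54033105), also in the window of MIR615, lay 279 bp from an untreated peak, with the CTCF hit 14 bp from its summit.

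For comparison, 15.4% of all members in protein-coding windows had a CTCF motif, and 2209 of 19970 protein-coding genes had a member. Among developmental transcription factors a member was present at 18 of the 114 genes, none of these genes had a CTCF motif at a member, and the highest scores were 116 at GATA6, a factor of endoderm and heart, and 108 at LHX4, a factor of pituitary development. Others were FOXM1 (84 and 33), FOXC2 (74), LHX1 (74), NKX6-1 (61 and 42) and SOX9 (53). The 22 histone genes with a member had 0 CTCF motifs too. Many histone genes lie back to back and share a peak, such as H2AC15 and H2BC15 (score 203, with the SBS2 hit shown above, 78 bp from the summit) or H2AC7, H2BC7 and H3C4 (169). The peak at H2BC18 (chr1:149811255-149812807, score 245) was 1553 bp wide.

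Of the clustered protocadherin genes, whose alternative promoters are known CTCF targets, 3 of 54 had a member, PCDHGA11 (score 117), PCDHGC4 (55) and PCDHGC3 (46). None of these had a CTCF motif within 100 bp of the summit. Counts over whole lists stand beside 2209 of 19970 for all protein-coding genes. The solute carrier members were led by SLC5A5, the sodium iodide symporter (score 349), and SLC12A5, a neuronal potassium chloride cotransporter (230), and 3 of 40 solute carrier genes with a member had CTCF at it. TUBB, a beta-tubulin gene (chr6:30717507-30717754, score 289), lay at 196 bp from the TSS with neither motif. Single members were found at the cadherin gene CDH12 (58) and the olfactory receptor gene OR1F1 (89). Collagen members were at 3 genes, COL13A1 with the 3 described above, COL24A1 (72) and COL8A1 (41). Keratin genes had 0 members among 70 genes.

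**Figure D5:**
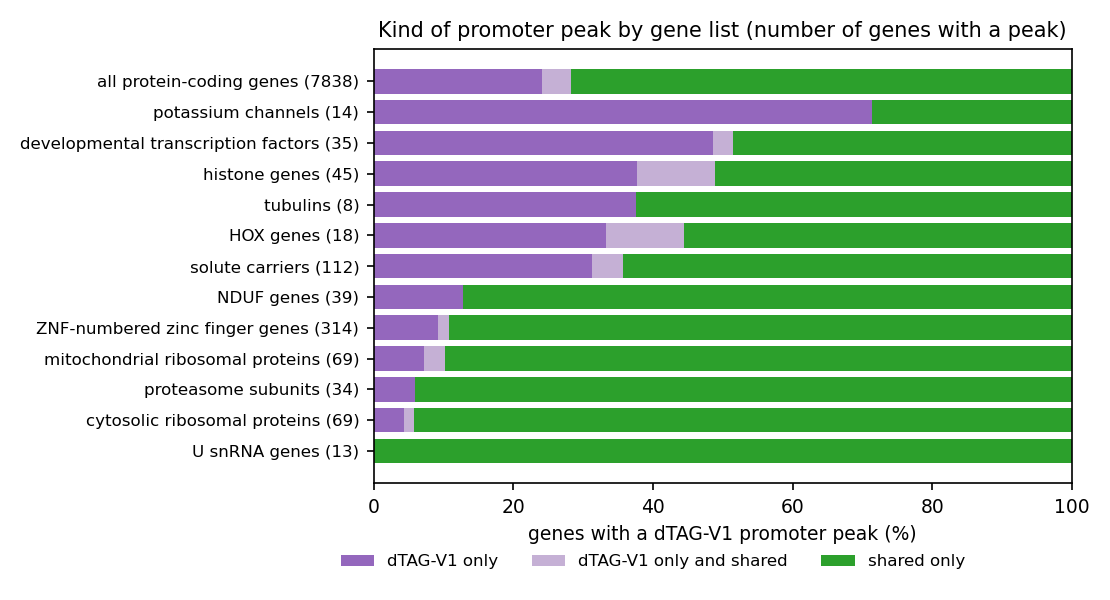
Genes with a dTAG-V1 promoter peak in each list with 8 or more such genes (number in parentheses) and over all protein-coding genes, divided by whether they have only dTAG-V1-only peaks (purple), these and shared peaks (light purple) or only shared peaks (green), as a share of those genes (x axis, %). Purple covers 24.1% over all protein-coding genes, 71.4% of 14 potassium channel genes and 4.35% of 69 cytosolic ribosomal protein genes.

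The genes of ZNF143 itself, its paralog ZNF76 and the cofactors HCFC1 and THAP11 each had 1 shared promoter peak and 0 members. Among CTCF and cohesin genes, STAG1 and STAG2, which encode alternative cohesin subunits, had a member. The STAG1 member (chr3:136752245-136752473, score 95) was in exon 1, 347 bp from an untreated peak, and its CTCF hit lay 16 bp from the summit. The STAG2 member (chrX:123960407-123960832, score 99) had an SBS1 hit 60 bp from the summit and lay 518 bp from an untreated peak. CTCF, SMC1A, SMC3 and WAPL had a shared peak only, and NIPBL and RAD21 had no dTAG-V1 peak in their windows. Among genes known from textbooks for CTCF at their promoters or control regions, MYC had 2 members, 1 with a CTCF motif (score 79) and 1 with an SBS motif (score 36). RB1 had a shared peak, and APP, CDKN2A, H19, IGF2 and TERT had no dTAG-V1 peak in their windows.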

How the data were processed

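The ZNF143 samples precipitated with the Proteintech antibody are represented by 2 peak lists, each standing for 4 of the 14 samples in the series. The 6 CTCF samples were not analysed here. Per the methods, the authors mapped reads to hg38 with BWA, filtered them with SAMtools, removed duplicates with Picard and called narrow peaks with MACS2, keeping peaks detected in each untreated replicate or in any treated one. Whether the deposited lists were so filtered is unknown, as is sequencing depth. Such a rule asks more of untreated peaks, and its effect on the number of peaks found only with dTAG-V1 was not tested. Names of untreated peaks refer to DMSO, and the labels, which give no treatment, were followed. The deposited score is an integer from the q-value of MACS2. The deposited fold enrichment is a ratio over local background at the summit, and the deposited −log10 q-value is from the same call. The column of p-values was not used. The lowest −log10 q was 2.01 in both lists. A longer list holds more weak peaks. The lists have 0 unused per-sample columns.

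Lists were overlapped by 1 bp or more and the count was checked with bedtools 2.31.1. TSSs were those of GENCODE release 44. Matrices of 14 (CTCF), 19 (SBS1) and 21 (SBS2) positions were learned within 100 bp of summits on odd-numbered autosomes, from seeds with at most 2 mismatches, in 10 rounds at p 1e-06 with a pseudocount of 0.8, and searched at p 1e-05 (Python 3.11.15, numpy 2.4.6, numba 0.67.0, pysam 0.24.0). The position inside an exon or intron refers to the canonical transcript of the gene, while distances refer to the gene record. Scripts were tested on simulated data. Members, lists and tests were chosen with earlier results of these data known. Named peaks were the 10 members of highest score, the 3 highest of each motif class, the 2 highest of each gene list, those nearest to the overlap limit and those of genes with most members. Further members of the potassium channel, HOX, developmental factor, histone, protocadherin and collagen lists were named after their values were seen. No p-value over samples was computed, since no value per sample was available. Alternatives to the choices are given at the end. Some genes that the rule or the lists would name are not reported here.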

Additional observations from a re-analysis of the deposited data

How the results depend on the processing

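All 5 differences in motif share kept their sign and an interval that excludes 0 under every alternative tried that gave a value. The added alternative gave none against promoter peaks found only untreated. CTCF in members minus shared promoter peaks ranged from 3.78 points in whole peaks to 33.4 points in the added alternative, and SBS in members minus promoter peaks found only untreated from -45.7 points at p 5e-05 to -2.18 points with the fixed pattern. Of 100 alternative values, 29 moved, which means past the 95% interval of a reported share or median, or by over 1.5 times for the number of peaks. The other 71 did not, where a difference had only to keep its sign and an interval without 0. The number of peaks was 4995 with all transcript TSSs, 2091 with protein-coding gene TSSs, 1708 with a window of 500 bp to either side and 979 when as many dTAG-V1 peaks as the untreated list holds were kept by score, the added alternative, chosen after seeing the data. In those 979 peaks the CTCF share was 46.5%. It was 31.6% with hits at p 5e-05, 14.1% at p 1e-06, 24.8% in whole peaks, 16.1% around the centre, 15.6% with a fixed pattern, 19.4% with 50% reciprocal overlap, 24.9% with transcript TSSs and 28.4% with a −log10 q of at least 5. The SBS share was 23.2% at p 5e-05, 1.22% at p 1e-06, 14.1% in whole peaks, 0.122% with the fixed pattern and 9.02% with 50% overlap. With 50% overlap and with transcript TSSs, the median distance from the TSS was -137 and -95 bp, the share in protein-coding windows 67.3% and 77.1%, and the median CpG ratio 0.572 and 0.442. The share of members whose window also held a shared peak was 8.12% with 50% overlap and 9.04% with a −log10 q of at least 5. CTCF hits within 50 bp of the summit were 81.9% at p 5e-05, 89.2% at p 1e-06 and 82.7% at protein-coding TSSs. The cause of these shifts was not tested. No paired analysis was possible because each list holds no value per replicate, and for the same reason no replicate could be left out.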
